A study of Homo sapiens with 6 samples.

Results

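MYC binding was examined at the starts of 9 genes that act in RNA splicing. These were SRSF6, SRSF1, SRSF2, SRSF3 and SRSF7, which encode SR proteins, HNRNPA1, HNRNPA2B1 and PTBP1, which encode heterogeneous nuclear ribonucleoproteins (hnRNPs) or hnRNP-like proteins, and PRMT5, which encodes a methyltransferase of the splicing machinery. Members were chosen by measured peak positions: a peak belonged to a gene when its summit lay within 5 kb of the gene start in hg19. The group was built around SRSF6, whose peak was already known to be among the strongest. Of 59006 peaks in the 3 MYC lists, 34 met this rule, namely 12 of 24899, 11 of 16809 and 11 of 17298 for replicates 1, 2 and 3. Because the same peaks chose the genes, their levels are described without a test.

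The material was ONS76, a human cell line established from a medulloblastoma and engineered with an inducible SOX2 gene, and DNA bound by MYC was sequenced after chromatin immunoprecipitation (ChIP-seq). Labels named 3 libraries made with the MYC antibody Y69 and 3 made with normal IgG, all from this engineered line, and a peak list of each MYC library was analysed. The study's description of the ChIP names the cells only as ONS76. By the study's account, ChIP was not done under elevated SOX2, and immunoprecipitations of the same chromatin batch were combined. Whether the 3 MYC libraries shared a batch is not stated, so the spread between libraries may be technical or biological. Fold enrichment is the number of fragments at a summit over the local background, with 1 added to each, as the authors' peak caller (MACS2) gave it. The genome-wide background level, which grows with depth, was 7.79, 5.84 and 4.76 fragments for replicates 1, 2 and 3.

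MYC pairs with MAX and binds DNA preferentially at E-boxes, short motifs of the form CANNTG with CACGTG as the canonical one. CACGCG is a known noncanonical variant. Genes for RNA processing are a known class of MYC targets. SR proteins bind exons and mostly promote their inclusion, hnRNP A1 and the polypyrimidine tract binding protein PTBP1 often oppose inclusion, and PRMT5 methylates Sm proteins during assembly of the spliceosomal small nuclear ribonucleoproteins.

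The sequence upstream of the gene starts was searched for E-boxes, because the peaks lay around these starts. RefSeq promoter windows of hg38, reaching from 250 bases before to 50 bases after a start, were matched by symbol for 7 of the 9 genes and gave 9 windows, with 2 each for PTBP1 and SRSF7. HNRNPA1 and SRSF2 were not matched. Both strands were read. The 250 bases before the start are printed for SRSF6, which had the strongest peak, for SRSF1, which held the most motif copies, and for SRSF3, the single gene whose summits lay at distances within such a window in all 3 libraries. Capitals mark CACGCG or its reverse complement CGCGTG, and the pattern CANNTG, neither of which is in the SRSF6 stretch.
SRSF6 (hg38 chr20:43457646-43457895, plus strand): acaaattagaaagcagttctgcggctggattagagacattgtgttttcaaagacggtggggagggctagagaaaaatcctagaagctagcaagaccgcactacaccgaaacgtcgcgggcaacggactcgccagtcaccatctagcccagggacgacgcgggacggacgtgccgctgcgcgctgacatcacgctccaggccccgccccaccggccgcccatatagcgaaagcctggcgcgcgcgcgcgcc
SRSF1 (hg38 chr17:58007247-58007496, minus strand): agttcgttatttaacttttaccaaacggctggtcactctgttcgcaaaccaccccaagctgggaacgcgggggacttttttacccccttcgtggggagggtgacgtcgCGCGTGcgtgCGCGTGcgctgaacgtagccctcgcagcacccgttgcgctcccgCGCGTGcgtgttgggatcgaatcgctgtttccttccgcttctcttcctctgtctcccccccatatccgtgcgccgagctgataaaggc
SRSF3 (hg38 chr6:36594112-36594361, plus strand): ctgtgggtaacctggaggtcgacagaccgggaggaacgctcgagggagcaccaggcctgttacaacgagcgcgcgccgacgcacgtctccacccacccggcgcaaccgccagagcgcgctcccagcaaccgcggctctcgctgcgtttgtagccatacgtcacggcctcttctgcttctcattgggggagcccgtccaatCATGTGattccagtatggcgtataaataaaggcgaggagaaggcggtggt

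CACGTG was in 0 of the 9 windows, against 7.26% of all 35116 RefSeq windows. CACGCG or CGCGTG was in 5 of the 9 windows, belonging to 4 of the 7 genes, against 11.4% of all windows. GC content was 55% to 82.7% in the 9 windows, against a median of 58.7% over all windows. Its part in these shares was not tested. SRSF1 held 3 copies, at 142, 132 and 88 bases upstream. At SRSF6 the only copy lay 39 bases after the start. A single site served both overlapping windows of SRSF7, and the second start of PTBP1 had copies 234 and 47 bases upstream. The 30-base surroundings of the SRSF7 site and of the nearer PTBP1 site, and the end of the SRSF6 window, are as follows, with the motif in capitals.
SRSF6 (hg38 chr20:43457922-43457945, plus strand): tgtggtgtgaggCGCGTGttcggg
SRSF7 (hg38 chr2:38751485-38751514, minus strand): ccgcccatgaccCGCGTGttagtctcttca
PTBP1 (hg38 chr19:797925-797954, plus strand): ttggccccagcgCGCGTGcgcggccgccat

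The broader pattern CANNTG was in 2 of the 9 windows, as CATGTG 50 bases upstream of SRSF3 and as CATTTG 137 bases upstream of HNRNPA2B1, against 68.7% of all windows. The windows of PRMT5 and of the first start of PTBP1 held none of these motifs. These are matches of letters and not sites of binding. The hg19 starts used for the peaks were those given with the rule and may differ from RefSeq starts by an amount that was not determined, and most summits lay outside the span of these windows.

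All 9 genes had a peak within 5 kb in each of the 3 libraries. The 34 peaks merged into 12 places, of which 10 had a peak in all 3 libraries, 1 in exactly 2 and 1 in a single library. Over the whole series 45% of 27801 merged places had a peak in all 3 libraries and 62.4% in at least 2. Since peaks chose the genes, nothing was read from the higher share. The strongest peak of each gene in each library, 27 in all, is called its main peak. Of these, 26 spanned the gene start, the exception being HNRNPA2B1 in replicate 3, and all main peaks of a gene fell in a single merged place.

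SRSF6, which encodes an SR protein that regulates alternative splicing, had the highest MYC enrichment of the group in every library. Its peak lay on chromosome 20 between 42085823 and 42087352 (hg19). Replicates 1, 2 and 3 gave folds of 48.5, 35.4 and 42.7, with a mean of 42.2 ± 6.57 (SD, n = 3). These folds rested on 785, 423 and 381 fragments, the largest numbers among the 9 genes. By fold the peak ranked 4 of 24899, 12 of 16809 and 6 of 17298, and by p-value it ranked 2, 3 and 3. Counting error of the summit fragments alone gave 95% intervals (exact Poisson) of 45.2 to 52.02, 32.1 to 38.9 and 38.5 to 47.1. Replicates 1 and 2 thus differed by more than this error, with the local background taken as fixed. The −log10 p-values of the peak were 1014, 495 and 482. The lowest SRSF6 fold, 35.4, was above the highest fold of any other gene in the group, which was 22.9 for SRSF7 in replicate 1.

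The other SR protein genes spread from high to moderate enrichment. SRSF7, whose product also takes part in mRNA export, had folds of 22.9, 16.5 and 16.7 in replicates 1, 2 and 3 (mean 18.7 ± 3.61, SD, n = 3) on chromosome 2 between 38977390 and 38978947. Replicate 1 stood above the other libraries, which were alike. SRSF2, also known as SC35 and used as a marker of nuclear speckles, had folds of 12.5, 14.1 and 17.4 (mean 14.7 ± 2.47, SD, n = 3) on chromosome 17 between 74732346 and 74734459. Here replicate 1 was lowest and replicate 3 highest. MFSD11 starts 788 bp upstream of SRSF2 on the other strand (hg38), so the SRSF2 peak cannot be assigned to a single gene from position alone. SRSF1, the founding SR protein and a known proto-oncogene, had folds of 10.05, 12.9 and 11.1 (mean 11.4 ± 1.47, SD, n = 3) on the same chromosome between 56083695 and 56085486. Its local background in replicate 1 was 2.21 times the genome-wide level, the highest of the 27 main peaks.

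SRSF3, the smallest of the classical SR proteins, had the lowest enrichment of the group in every library. Folds were 8.36, 8.19 and 8.04 (mean 8.20 ± 0.160, SD, n = 3) on chromosome 6 between 36561674 and 36562997. Even so, 84.4% to 88.1% of the peaks of a list had a lower fold. The coefficient of variation (CV) over libraries was 1.95%, and 1.12% of the 12499 places found in all 3 libraries had a lower one. This closeness exceeds what the fragment numbers resolve, as 88, 55 and 47 fragments carry wide intervals, 6.73 to 10.3, 6.20 to 10.6 and 5.96 to 10.6.

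Among the hnRNP genes, the main peaks placed at HNRNPA1 and HNRNPA2B1 by the rule were alike in fold, and both were higher than that of PTBP1. HNRNPA1, which encodes one of the most abundant hnRNPs, had folds of 20.8, 18.3 and 21.9 (mean 20.3 ± 1.86, SD, n = 3) on chromosome 12 between 54673222 and 54675291. CBX5 starts 604 bp upstream on the other strand (hg38), so the HNRNPA1 peak cannot be assigned to a single gene from position alone. HNRNPA2B1, whose product is related to hnRNP A1, had folds of 22.1, 17.8 and 22.4 (mean 20.8 ± 2.55, SD, n = 3) on chromosome 7 between 26239037 and 26242264. These folds cannot be assigned to HNRNPA2B1 rather than to its neighbour CBX3. The summits lay 1423 to 1473 bp upstream, and CBX3 starts 999 bp upstream in hg38. A separate peak 570 bp into HNRNPA2B1 in replicate 3 had a fold of 8.13. For both HNRNPA1 and HNRNPA2B1 replicate 2 was lowest and replicate 3 highest. PTBP1, a repressor of neuronal exons, had folds of 15.9, 10.2 and 12.3 (mean 12.8 ± 2.88, SD, n = 3) on chromosome 19 between 796765 and 798232. Its CV of 22.5% was the largest of the 9 genes, and the counting intervals of replicate 1 (13.4 to 18.8) and replicate 2 (7.99 to 12.9) did not overlap.

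PRMT5, whose product works in the methylosome, had folds of 12.9, 14.8 and 15.2 (mean 14.3 ± 1.25, SD, n = 3) on chromosome 14 between 23398216 and 23399035. Its main peaks were also the narrowest of the group in replicates 1, 2 and 3, at 820 bp, 573 bp and 581 bp. All 3 libraries lay close together, and their counting intervals overlapped.

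**Figure D1:**
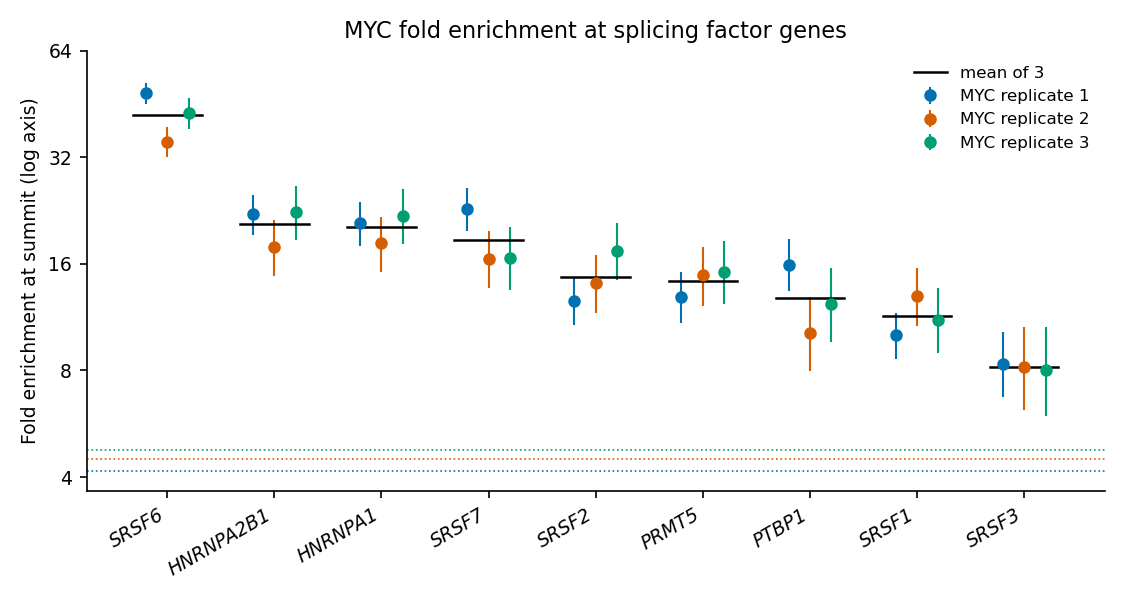
Fold enrichment at the main MYC peak (y axis, log scale) of 9 splicing genes (x axis, ordered by mean), with 1 point per MYC library, exact Poisson 95% intervals for counting error as bars, black lines for the mean of 3 libraries and dotted lines for the median of each whole list. SRSF6 lies apart at 35.4 to 48.5, SRSF3 is lowest at 8.04 to 8.36, and all points lie above the list medians of 4.15 to 4.78. The HNRNPA2B1 points cannot be assigned to that gene rather than to its neighbour CBX3. Those of HNRNPA1 and SRSF2 cannot be assigned to a single gene from position alone.

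The order of the genes by mean fold was SRSF6, HNRNPA2B1, HNRNPA1, SRSF7, SRSF2, PRMT5, PTBP1, SRSF1 and SRSF3. In it, the place of HNRNPA2B1 rests on summits that cannot be assigned to this gene rather than to CBX3. The peaks of HNRNPA1 and SRSF2, with the neighbours CBX5 and MFSD11, cannot be assigned to a single gene from position alone either. Between neighbours in this order, only the pairs at its ends had ranges apart. Genes farther from each other in it could also be apart, such as HNRNPA1 at 18.3 to 21.9 and SRSF2 at 12.5 to 17.4. The ranges of SRSF6 and HNRNPA2B1 did not overlap, nor did those of SRSF1 and SRSF3, while the ranges of the other 6 neighbouring pairs overlapped. SRSF2 was above PRMT5 in 1 of 3 libraries, although its mean was higher. Of all 36 pairs of genes, 28 had the same order in all 3 libraries. Compared with the whole series, main peaks exceeded a median of 98.1% of the peaks of their list, with a range of 84.4% to 99.98%. For replicates 1, 2 and 3, a −log10 p of at least 50 was reached by 9, 7 and 8 of the 9 main peaks. Over the lists such peaks made up 12.8%, 7.88% and 7.43%, and nothing was read from the excess at genes that their peaks had chosen. Among the 12499 places found in all 3 libraries, ranked by mean fold, SRSF6 was at 5, HNRNPA2B1 at 143, HNRNPA1 at 155, SRSF7 at 207 and SRSF3 at 2503.

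Summits lay mostly inside the genes rather than upstream. Distances are given along the direction of transcription, positive into the gene. For 6 of the 9 genes the main summit was downstream of the start in all 3 libraries. At SRSF6 it lay 361, 377 and 350 bp into the gene in replicates 1, 2 and 3 (mean 363 ± 13.6, SD, n = 3). SRSF7 (mean 369 ± 11.4 bp) and HNRNPA1 (345 ± 36.5 bp) had their summits at a like distance, and PRMT5 was closer to the start, at 247 ± 11.2 bp (SD, n = 3 each). In the genes on chromosome 17 the summits were deeper. They lay 697, 689 and 715 bp into SRSF1 and 701, 699 and 706 bp into SRSF2. The summits of SRSF2 spanned 7 bp over the libraries, and 2.52% of the places found in all 3 libraries had a span as small.

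SRSF3 had its summits upstream, by 117, 96 and 145 bp. HNRNPA2B1 had the most distant main summits, 1470, 1423 and 1473 bp upstream. In hg38 (GENCODE v44 canonical transcripts), CBX3, which encodes a heterochromatin protein 1 family member, starts on the other strand 999 bp upstream of HNRNPA2B1. The main summits were thus farther out than this distance between the starts, and fold enrichment there cannot be assigned to HNRNPA2B1 rather than to CBX3. HNRNPA2B1 peaks were 3228 bp and 3046 bp wide in replicates 1 and 2, wider than 99.96% and 99.98% of their lists. In replicate 3 the same stretch was split into a peak of 1493 bp upstream and a separate peak of 1232 bp with its summit 570 bp into HNRNPA2B1. The fold of this second peak was 8.13 on 52 fragments, against 22.4 on 128 fragments upstream.

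CBX5, another heterochromatin protein 1 gene, starts 604 bp upstream of HNRNPA1 on the other strand, and MFSD11 starts 788 bp upstream of SRSF2 (hg38). The main peaks of HNRNPA1 were up to 2057 bp wide and those of SRSF2 up to 1961 bp, so neither can be assigned to a single gene from position alone. The microRNA gene MIR636 starts 783 bp into SRSF2 in hg38. The main summits of SRSF2 lay 699 to 706 bp from the hg19 start of the rule, which may differ from the hg38 start. A noncoding transcript, PRMT5-DT, starts 237 bp upstream of PRMT5. No named coding gene of the same annotation started on the other strand within 5 kb of the remaining 6 genes. Genes without a symbol also start nearby. Among them are a coding gene 158 bp into SRSF6 on the same strand and a gene 594 bp into SRSF1 on the other strand.

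PTBP1 was the gene where the libraries disagreed on position. Its summit was 293 bp upstream in replicate 1 and 308 bp upstream in replicate 3, but 364 bp into the gene in replicate 2, a span of 672 bp within peaks that overlapped. Of the places found in all 3 libraries, 97.2% had a span at most as wide, with a median of 58 bp. The RefSeq windows of PTBP1 in hg38 belong to starts at 797452 and 797984 on chromosome 19.

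The first exons of the canonical hg38 transcripts are 245 bp in SRSF6, 133 bp in SRSF7, 97 bp in HNRNPA1, 125 bp in PRMT5, 303 bp in SRSF1 and 533 bp in SRSF2. In each of these 6 genes the smallest summit distance was larger than this length. The distances were counted from the hg19 starts of the rule, which may differ from the starts of these transcripts. The comparison therefore does not place a summit past the first exon. Whether a summit lay in an exon or an intron was not assigned, because the peaks are in hg19 and no position was carried between builds.

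**Figure D2:**
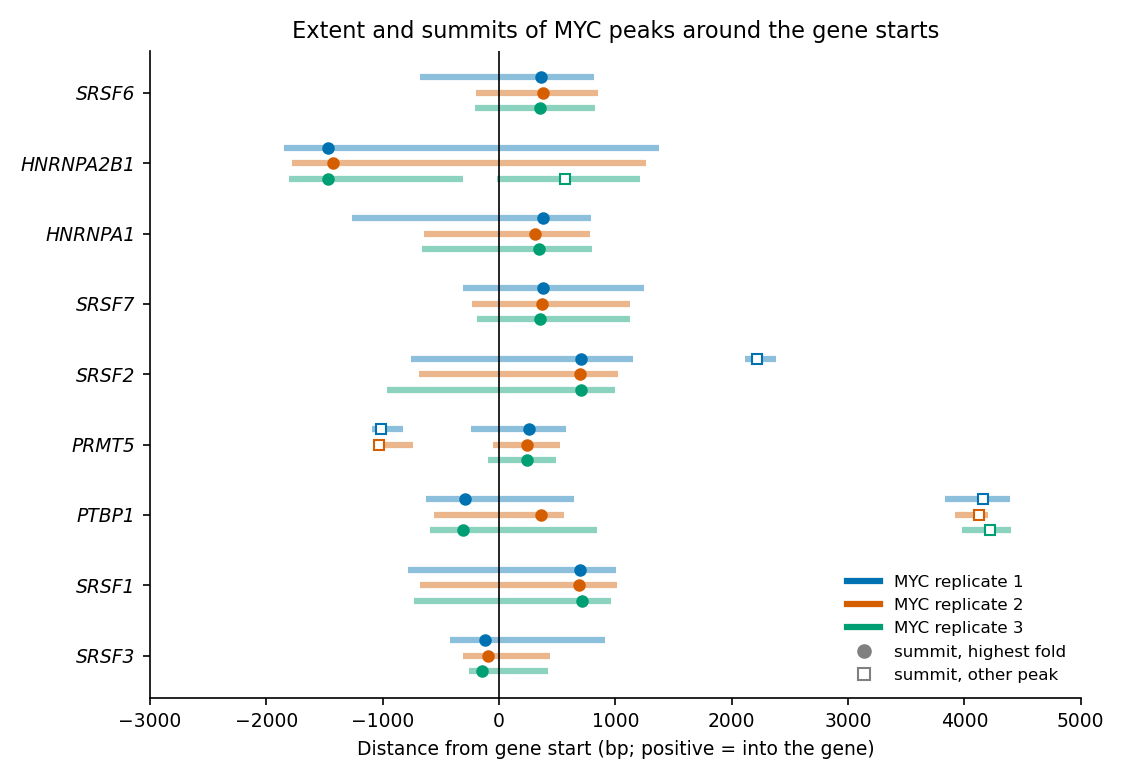
MYC peaks (bars) and their summits (filled circles for the peak with the highest fold, open squares for others) within 5 kb of 9 gene starts, as distance from the start in bp along the direction of transcription (x axis), 1 row per library. SRSF6, SRSF7 and HNRNPA1 summits cluster near 345 to 369 bp (means), those of SRSF1 and SRSF2 near 700.3 and 702 bp, those of HNRNPA2B1 lie 1423 to 1473 bp upstream, and PTBP1 differs between libraries.

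Besides the 27 main peaks, 7 weaker peaks at 4 genes met the rule, with folds of 2.55 to 8.13. PTBP1 had a peak well inside the gene in all 3 libraries, 4157, 4124 and 4223 bp from the start, with folds of 3.28, 2.99 and 5.21. These were the peaks closest to the 5 kb limit from within. PRMT5 had a peak 1010 bp upstream in replicate 1 (fold 3.25) and 1033 bp upstream in replicate 2 (fold 2.55), and none there in replicate 3. SRSF2 had a peak of fold 3.12, on 39 fragments, 2216 bp into the gene in replicate 1 only. Outside the limit, the nearest peaks were 10378 to 10432 bp from the start of SRSF2, found in all 3 libraries with folds of 9.49, 7.40 and 10.5, and 10520 bp from PRMT5 in replicate 1 with a fold of 3.10. SRSF7, HNRNPA1 and HNRNPA2B1 had no further peak out to 20 kb.

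Fold enrichment divides by the local background, and this differed between the genes. It is given here relative to the genome-wide level of the same list. At SRSF6 it was 1.95, 1.88 and 1.67 in replicates 1, 2 and 3, near the median of 2.07, 1.90 and 1.89 over all chromosome 20 peaks. SRSF1 had 2.21, 1.35 and 1.49 and SRSF2 had 1.59, 1.21 and 1.19. PTBP1 was at the genome-wide level in all 3 libraries, and SRSF7 and HNRNPA1 were at most 1.05 times that level. Summit fragments over the genome-wide level, which leave the local background out, were 101, 72.4 and 80.1 at SRSF6 (mean 84.4 ± 14.7, SD, n = 3). HNRNPA2B1 came next at 25.9 ± 4.75 and SRSF3 was again lowest at 10.2 ± 0.982. On this scale SRSF1, at 20.5 ± 2.49, moved above PRMT5 (18.8 ± 0.641) and PTBP1 (14.8 ± 3.02), and the other genes kept their relative order (SD, n = 3 each). SRSF6 thus stood 3.26 times above the next gene over the genome-wide level and 2.03 times over the local background. The part of the raised chromosome 20 background in the fold of SRSF6 was not tested.

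**Figure D3:**
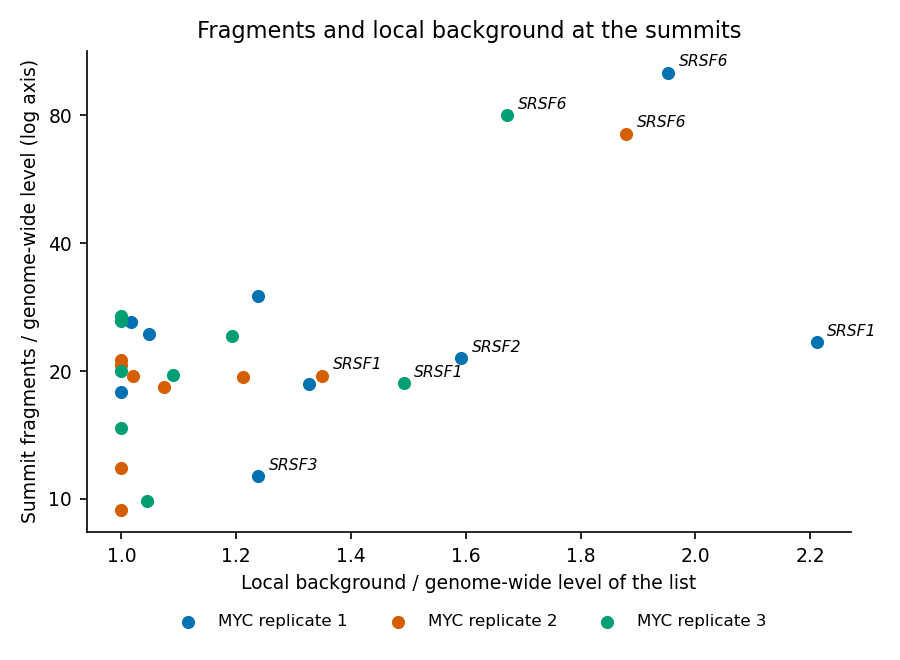
Summit fragments over the genome-wide level of the list (y axis, log scale) against the local background over the same level (x axis) for the main peaks of 9 genes, 1 point per gene and MYC library. SRSF6 has the most fragments in each library (72.4 to 101 times the level) and a raised background of 1.67 to 1.95, while the background of SRSF1 reaches 2.21 and its fragments are 18.7 to 23.4 times the level.

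Differences between libraries were not the same for every gene. Over the 12499 places found in all 3 libraries, the median ratio of folds was 1.14 (replicate 1 over 2), 1.05 (1 over 3) and 0.926 (2 over 3). The corresponding medians of the 9 genes were 1.14, 0.986 and 0.835. Single genes ranged from 0.776 (SRSF1) to 1.56 (PTBP1) in replicate 1 over 2, and from 0.722 (SRSF2) to 1.37 (SRSF7) in replicate 1 over 3. In the first of these ratios, SRSF6, SRSF7 and PTBP1 lay above the interquartile range of all places, 0.959 to 1.34, and SRSF1, SRSF2 and PRMT5 below it. All 9 genes lay between the 5th and 95th percentiles of all places for each of the 3 ratios. The genes with the lowest ratios of replicate 1 to the others, SRSF1, SRSF2 and PRMT5, also had their highest relative background in replicate 1, at 2.21, 1.59 and 1.33, but so did SRSF6 at 1.95, HNRNPA2B1 and SRSF3 at 1.24 and HNRNPA1 at 1.05. The part of the background in these ratios was not tested. Counting intervals of the fold were apart in 3 of 27 library pairs, all of replicates 1 and 2, at SRSF6, SRSF7 and PTBP1.

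**Figure D4:**
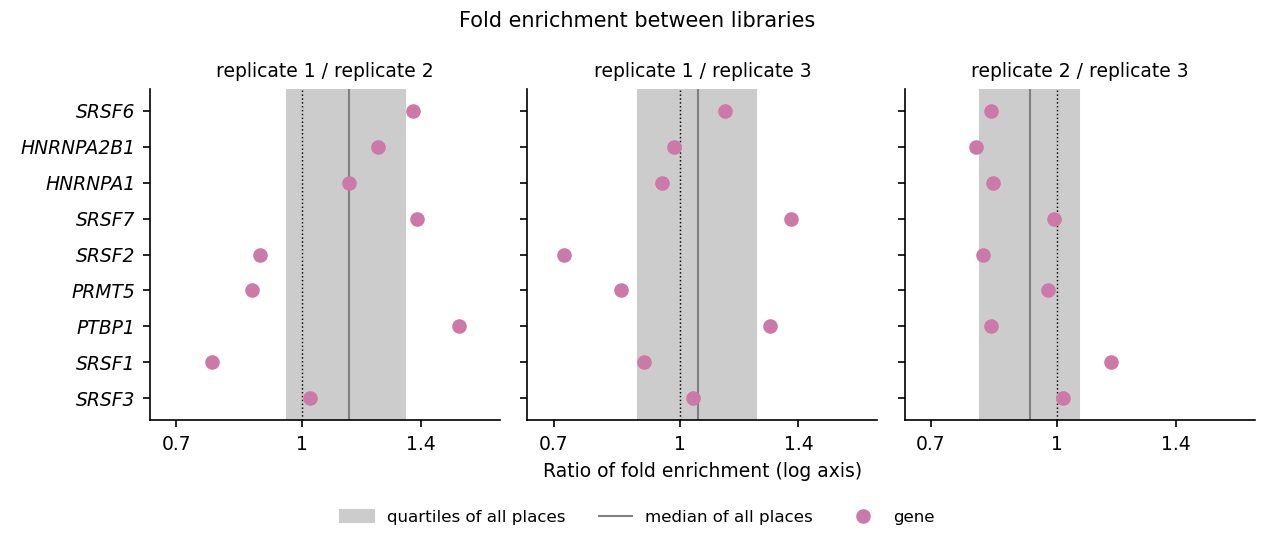
Ratio of fold enrichment between MYC libraries (x axis, log scale) for each of 9 genes (points), with the interquartile range (grey band) and median (grey line) of all 12499 places found in all 3 libraries. The genes scatter most in replicate 1 over 2, from 0.776 at SRSF1 to 1.56 at PTBP1.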

How the data were processed

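Peak lists of 3 MYC ChIP-seq libraries of ONS76 cells were analysed. The labels gave each library's group and replicate number. Of the 3 normal IgG libraries no peaks were analysed. As the methods of the study state, the authors used Bowtie2 (hg19) for alignment and MACS2 (q-value 0.05) to call peaks per library. Software versions: not given in the sources used here, nor is the control library. For every peak the authors deposited a fold enrichment, which is a ratio, significance as −log10 of the p-value and q-value, and a score, which is 10 times the latter cut to a whole number. The authors did not scale these values between libraries, and depth was read from the background.

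Fragments and local background at each summit were recovered from the fold and the Poisson −log10 p-value. A whole number of fragments matched within 0.001 for 100% of peaks in each list. As genome-wide level served the lowest background in each list. Exact Poisson 95% intervals cover counting error of the summit fragments only, with the local background taken as fixed. Places are unions of peaks that share 1 bp or more. Gene starts were those of the rule, and summit distances were the summit counted from 0 minus the start, signed by strand. Recovery and merging were run on simulated data. These were built with the same formulas and with well separated places, so this checks the computation only. Close or split peaks were not simulated. Python 3.11.15, numpy 2.4.6, scipy 1.17.1, pandas 2.3.3 and matplotlib 3.10.9 were used.

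The 9 genes and all lists were chosen with earlier results of these data known. All 9 were named whatever their values, beside neighbours that have a symbol and whose starts lie within 5 kb in hg38. Other splicing genes were not placed, since their hg19 starts were not used here. The hg38 annotation served only for strand, exon lengths and neighbours. Alternatives were q-values of 0.01 and 0.001, windows of 1 kb and 10 kb, summits at most 200 bp apart, the nearest summit, fold with nothing added or over the genome-wide level, ranking by p-value, and leaving out each replicate.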

Additional observations from a re-analysis of the deposited data

How the results depend on the processing

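SRSF6 was first and SRSF3 last of the 9 genes by mean fold under all 8 alternatives for fold enrichment. Both stricter q-value thresholds left every main peak in place. Within 1 kb of the start, 8 genes had a peak in all 3 libraries, because HNRNPA2B1 dropped out, and 8 had summits at most 200 bp apart, PTBP1 being the exception. The median of the 9 mean folds was 14.7. It was 16.6 with nothing added and 21.7 over the genome-wide level, and 13.9 to 15.7 when a replicate was left out. SRSF6 was at 84.4 over the genome-wide level and at 39.02 to 45.6 without a replicate. Both changes of scale enlarge the value by construction, since the first drops the added 1 and the second divides by the lowest background. With the nearest summit, HNRNPA2B1 took its weaker peak in replicate 3 and fell below HNRNPA1 and SRSF7. The median rank was 97.4% by p-value, against 98.1% by fold. The median summit distance was 345.3 bp, and 327.5 to 355.5 bp without a replicate. The median ratio of the highest to the lowest library was 1.29, and 1.14 to 1.24 with 2 libraries, which can only lower it. No paired analysis was possible, because no values of the IgG libraries of the same numbers were analysed. Whether IgG entered the local background of the MYC lists is not stated. The weaker peaks of PRMT5 and SRSF2 that were missing from some libraries rested on 39 fragments or fewer. The weaker peaks of PTBP1 had 20 fragments in replicate 2 and 29 in replicate 3, over local backgrounds of 6.03 and 4.76 fragments. The SRSF2 peak of replicate 1 lay over 11.8, and those of PRMT5 over 9.16 and 7.24 in replicates 1 and 2. Fragment numbers are thus not directly comparable between these peaks. The part of depth in the missing peaks was not tested.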
